A study of Homo sapiens with 3 samples.

Results

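The genes described here are the epidermal growth factor (EGF) family ligands EREG, AREG, HBEGF, TGFA, BTC and EPGN and the ERBB receptors EGFR, ERBB2 and ERBB3. They were chosen by name, and all 9 were found among the 19266 genes of the deposited tables. The study measured total RNA of KYSE510 cells, a human line from an esophageal squamous cell carcinoma, to screen for targets of the transcript TCONS_02256997. Cells received lentivirus with hairpin 1 against that transcript (sh1), hairpin 2 against it (sh2) or a scrambled hairpin (control), for 24 h, and all 3 groups then had 48 h under 4 µM puromycin. Each group is 1 sample, deposited as 3 numbered gene tables, and whether a table stands for its own culture, its own library or a repeat run is not in the labels. The tables are called libraries here (n = 3 per group). Every SE and adjusted p therefore covers only how the tables of 1 sample scatter, possibly for technical reasons, and no test between samples could be made. The labels do not say whether the infected cells were a pool or a clone. The level of TCONS_02256997 itself was not analysed here, so the knockdown was not checked.

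The EGF family ligands are made as membrane-bound precursors that proteases cut free, and each acts by joining ERBB receptors into active pairs. EGFR binds EREG, AREG, HBEGF, TGFA, BTC and EPGN, whereas ERBB2 has no known ligand and serves as a partner, and ERBB3 has a weak kinase and signals through its partners. In squamous epithelium EGFR signals through the RAS-ERK cascade drive growth and repair, and ligand genes are themselves among the targets of that cascade.

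Total expected counts were 14660821 to 14770512 in the sh1 libraries, 15759270 to 16092417 in the sh2 libraries and 15012961 to 15414591 in the control libraries. All 10 squamous markers on the list (such as KRT5 and TP63) were at 1 TPM or more in every library. Their sum was 4713 to 4791 TPM with sh1, 6210 to 6255 TPM with sh2 and 7801 to 7847 TPM in control, and KRT17, a basal keratin, was its main part (2681 ± 51.9 TPM with sh1, 3923 ± 18.8 TPM with sh2 and 4248 ± 35.4 TPM in control). Of the 10, 2 rose and 7 fell with sh1, and 3 rose and 6 fell with sh2. Over all genes tested, 34.7% rose and 34.6% fell with sh1, and 34.2% rose and 34.3% fell with sh2. SOX2, a squamous lineage factor, rose with both (1.26 ± 0.056 and 0.74 ± 0.06), whereas TP63 fell with both (-1.28 ± 0.03 and -1.16 ± 0.03). The leukocyte markers summed to 172 to 178 TPM with sh1, 155 to 175 TPM with sh2 and 112 to 121 TPM in control. CD68, a lysosomal membrane protein, made up most of that sum and rose with both hairpins (0.66 ± 0.043 and 0.60 ± 0.043). LYZ was at 11.9, 9.78 and 9.40 TPM and PTPRC at 3.63, 2.88 and 2.43 TPM with sh1, sh2 and in control. Both rose with sh1 (0.38 ± 0.13 and 0.63 ± 0.24) and were not called with sh2. CD3E, a T cell marker, had 1 count over all 9 libraries. The 5 fibroblast markers summed to 20.1 to 28.1 TPM over the 9 libraries. COL1A1, the only 1 of them tested, rose with both hairpins (0.16 ± 0.048 and 0.46 ± 0.046). The 4 endothelial markers summed to 7.45 to 10.6 TPM with sh1, 7.75 to 8.83 TPM with sh2 and 6.39 to 7.25 TPM in control. CDH5 made up most of that sum and rose with both (0.74 ± 0.12 and 0.61 ± 0.12). Of the other tested endothelial markers, VWF fell with both and PECAM1 was called with neither. The part of the lower squamous sum in the results on the ligands was not tested.

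EPGN, EREG, AREG and BTC follow each other without another coding gene between them on chromosome 4, whereas HBEGF lies on chromosome 5, TGFA on chromosome 2, EGFR on chromosome 7, ERBB3 on chromosome 12 and ERBB2 on chromosome 17. Promoter windows from RefSeq (GRCh38.p14, 250 bases before to 50 after a gene's start) were available for 8 of the 9 members, with 10 windows in all. ERBB3 was not matched. Shown here are 5 of these windows, because they belong to the ligand genes that fell together at the chromosome 4 cluster (EREG, AREG, EPGN), to 1 of the 2 ligand genes on other chromosomes that also fell (HBEGF, the one that fell 2-fold or more with both hairpins), and to the cluster member that rose (BTC). They lie at chr4:74364895-74365194 (plus strand), chr4:74444886-74445185 (plus strand), chr4:74308220-74308519 (plus strand), chr5:140346554-140346853 (minus strand) and chr4:74794474-74794773 (minus strand), in the order printed, each read 5′ to 3′ along its gene. Capitals mark matches on either strand to the letters of 5 motifs. The AP-1 motif was searched as TGANTCA, and the cyclic AMP response element (CRE) as TGACGTCA. The TEAD motif was searched as GGAATG, the TATA box as TATAAA, and the GC box, a site type of SP factors, as GGGCGG.
EREG: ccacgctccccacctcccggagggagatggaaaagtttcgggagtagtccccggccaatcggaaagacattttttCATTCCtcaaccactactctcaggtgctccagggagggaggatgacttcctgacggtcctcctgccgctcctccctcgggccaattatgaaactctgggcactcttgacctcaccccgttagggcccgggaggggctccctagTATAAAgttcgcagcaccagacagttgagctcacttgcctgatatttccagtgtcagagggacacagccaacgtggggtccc
AREG: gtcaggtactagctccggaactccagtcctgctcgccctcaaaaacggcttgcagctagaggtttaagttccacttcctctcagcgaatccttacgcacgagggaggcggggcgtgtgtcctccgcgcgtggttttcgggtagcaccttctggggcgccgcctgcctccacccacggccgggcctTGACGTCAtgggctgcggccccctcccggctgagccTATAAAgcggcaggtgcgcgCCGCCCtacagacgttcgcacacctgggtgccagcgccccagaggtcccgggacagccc
EPGN: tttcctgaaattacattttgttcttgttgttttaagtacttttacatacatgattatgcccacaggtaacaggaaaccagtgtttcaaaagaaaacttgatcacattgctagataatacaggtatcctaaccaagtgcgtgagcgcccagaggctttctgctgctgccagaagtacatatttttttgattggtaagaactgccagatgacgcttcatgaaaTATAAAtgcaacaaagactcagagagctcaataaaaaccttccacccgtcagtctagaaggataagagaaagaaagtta
HBEGF: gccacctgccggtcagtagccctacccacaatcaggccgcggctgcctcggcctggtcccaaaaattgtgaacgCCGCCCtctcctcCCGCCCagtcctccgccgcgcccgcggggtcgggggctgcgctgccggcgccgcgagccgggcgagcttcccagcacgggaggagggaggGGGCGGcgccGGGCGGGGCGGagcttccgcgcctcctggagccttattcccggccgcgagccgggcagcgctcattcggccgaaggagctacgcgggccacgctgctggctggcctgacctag
BTC: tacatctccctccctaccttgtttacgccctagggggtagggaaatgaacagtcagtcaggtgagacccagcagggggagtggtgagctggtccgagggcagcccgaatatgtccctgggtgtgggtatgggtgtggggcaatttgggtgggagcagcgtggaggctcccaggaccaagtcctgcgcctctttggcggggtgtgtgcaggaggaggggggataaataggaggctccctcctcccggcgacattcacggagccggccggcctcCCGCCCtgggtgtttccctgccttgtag

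The windows of EREG, AREG and EPGN each held the TATA box letters, which began 32 bases before the start for EREG and 29 before it for both AREG and EPGN. Together with the second EGFR window this made 4 of the 10 windows, where 11.5% of the 35116 windows of the table held these letters. AREG also held the CRE letters 65 bases before its start, 1 of 10 windows against 1.85% of all, and EREG the TEAD letters 175 bases before its start. The TEAD letters were found in 2 of the 10 windows, against 14% of all, and AP-1 letters in 2, the second EGFR window and that of ERBB2, against 7.71%. The HBEGF window held 5 GC boxes, 2 of which overlapped, and had no TATA box match. GC box letters were in 5 of the 10 windows, against 45% of all. These matches describe the letters and are not tests of binding.

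The first question was what the hairpins did to the ligand genes. With each hairpin, 5 of the 6 ligand genes fell and BTC rose. With sh1 all 5 falls were at least 2-fold, and with sh2 EREG, AREG and HBEGF passed 2-fold. Over all 13580 genes tested, sh1 called 69.3% against control (34.7% higher, 34.6% lower, 5.21% lower by 2-fold or more). The same shares with sh2 were 68.5%, 34.2%, 34.3% and 4.61%, and 1.77% of genes fell 2-fold or more with both. Rises of 2-fold or more, of which the members had none, took 3.93% of genes with sh1 and 3.14% with sh2. With both hairpins 20.2% of genes fell, 19.4% rose and 12.7% moved in opposite directions, while 6 members (5 ligands and EGFR) fell with both, 2 (BTC and ERBB3) rose with both and none was called in opposite directions. The median log2 change of the 6 ligands was -2.17 with sh1 and -1.09 with sh2, where the medians of all genes were 0.014 and 0.0046. Both hairpins share the control libraries, so that their changes against control are not independent of each other. In these bulk samples, fewer cells that make a transcript and less of it per cell cannot be told apart.

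**Figure D1:**
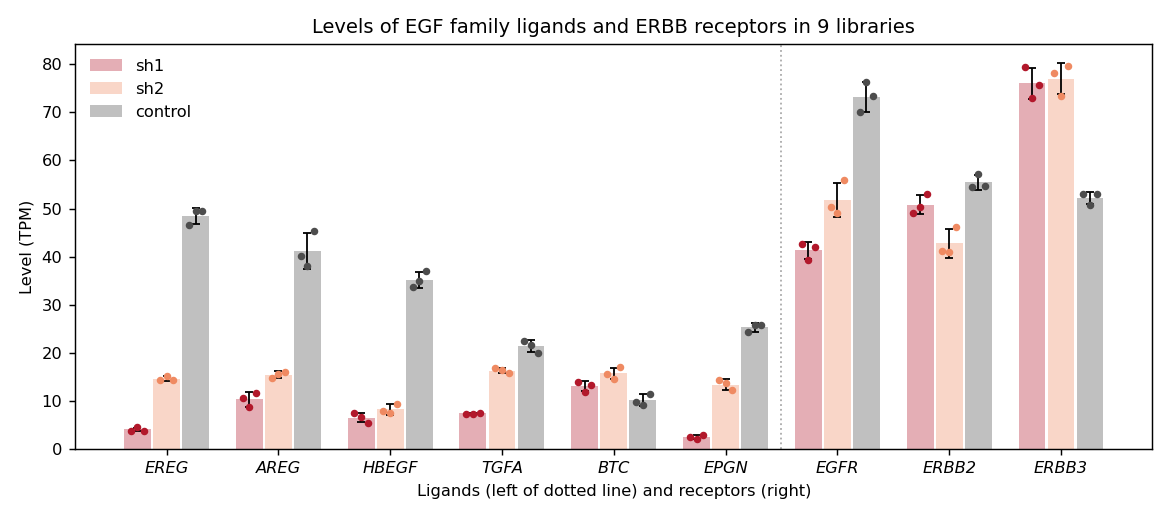
Levels of the 6 ligand genes and 3 receptor genes in TPM (vertical axis, linear) with sh1, sh2 and in control. Bars are means, error bars SD and points single libraries (n = 3 per group): EREG falls to 4.02 TPM with sh1 and 14.6 TPM with sh2, against 48.5 TPM in control, while ERBB3 and BTC are higher with both hairpins.

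EREG encodes epiregulin, a ligand of EGFR and ERBB4 induced by growth factor signals. It stood at 3.79, 4.48 and 3.80 TPM (a level scaled for transcript length and sequencing depth) in the sh1 libraries, at 14.3, 15.2 and 14.3 TPM in the sh2 libraries and at 46.6, 49.4 and 49.4 TPM in control. The 3 groups did not overlap, and sh1 was the lowest. Its log2 fold change was -3.54 ± 0.063 with sh1 (11.6-fold lower) and -1.66 ± 0.047 with sh2 (3.16-fold lower). The adjusted p was 3.49e-28 for EREG with sh1 and 3.73e-23 for EREG with sh2 (quasi-likelihood test of edgeR, adjusted over all genes by the Benjamini-Hochberg method, as for every adjusted p below). The difference between the hairpins was itself called for EREG, at -1.88 ± 0.078 for sh1 against sh2 (adjusted p = 5.2e-19). The expected counts of EREG were not whole although the tables list 1 transcript for it, so some of its reads were divided with other rows of the tables.

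EPGN encodes epigen, a low-affinity ligand of EGFR, and lies next to EREG. Its levels were 2.51, 1.97 and 2.95 TPM with sh1, 14.3, 13.6 and 12.2 TPM with sh2, and 24.3, 25.7 and 25.8 TPM in control. As for EREG, the groups did not overlap, and the sh1 libraries were far below those of sh2. EPGN changed by -3.28 ± 0.11 with sh1 (9.74-fold lower, adjusted p = 7.22e-22) and by -0.84 ± 0.073 with sh2 (adjusted p = 1.5e-11). Its difference between the hairpins, -2.44 ± 0.12, was of greater size than that of any other member (adjusted p = 2.56e-17). With 119 counts over the sh1 libraries, EPGN rested on fewer reads there than any other member did in any group.

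AREG encodes amphiregulin, an EGFR ligand that binds heparin. It had 10.7, 8.65 and 11.6 TPM with sh1, 14.6, 15.7 and 16.1 TPM with sh2, and 40.0, 38.1 and 45.3 TPM in control. The hairpin libraries lay well below control and closer to each other than for EREG or EPGN. AREG changed by -1.95 ± 0.1 with sh1 (adjusted p = 9.57e-17) and -1.34 ± 0.091 with sh2 (adjusted p = 6.41e-14). The hairpins differed for AREG by -0.61 ± 0.12, sh1 against sh2 (adjusted p = 6.14e-05). In contrast to EREG, the counts of AREG were whole in all 9 libraries.

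HBEGF encodes heparin-binding EGF-like growth factor, which activates EGFR and ERBB4. Its levels were 7.37, 6.67 and 5.43 TPM with sh1, 7.76, 7.38 and 9.42 TPM with sh2, and 33.7, 34.9 and 37.0 TPM in control. Here the hairpins all but touched, the highest sh1 library lying just under the lowest sh2 library, and both were far below control. HBEGF changed by -2.39 ± 0.091 with sh1 (adjusted p = 3.89e-20) and -2.04 ± 0.084 with sh2 (adjusted p = 4.56e-19). Its difference of -0.35 ± 0.12 between sh1 and sh2 (adjusted p = 0.0101) was lost without sh1 library 3 (-0.24, adjusted p = 0.0998) and without sh2 library 3 (-0.24, adjusted p = 0.0957).

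TGFA encodes transforming growth factor alpha, the classical EGFR ligand of carcinoma and keratinocytes. It was at 7.26, 7.29 and 7.49 TPM with sh1, at 16.8, 16.3 and 15.7 TPM with sh2, and at 22.4, 21.7 and 19.9 TPM in control. The sh1 libraries stood apart from both other groups. TGFA changed by -1.49 ± 0.068 with sh1 (adjusted p = 3.67e-18) but by -0.32 ± 0.057 with sh2 (adjusted p = 1.02e-05), and the hairpins differed by -1.17 ± 0.07 (adjusted p = 3.9e-15).

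BTC encodes betacellulin, which activates EGFR and ERBB4, and closes the chromosome 4 cluster. Unlike its neighbours it rose, with 13.9, 11.8 and 13.3 TPM with sh1, 15.6, 14.6 and 16.9 TPM with sh2, and 9.79, 9.11 and 11.4 TPM in control. Its lowest sh1 library lay only just above its highest control library. BTC rose by 0.42 ± 0.092 with sh1 (adjusted p = 0.000169) and by 0.71 ± 0.087 with sh2 (adjusted p = 2.03e-08), and was lower with sh1 than with sh2 (-0.29 ± 0.082, adjusted p = 0.00254). Of the coding genes that flank the cluster, PARM1 beyond BTC rose by 1.09 ± 0.092 and 0.87 ± 0.093 with sh1 and sh2, in that order. MTHFD2L beyond EPGN changed by 0.33 ± 0.17 with sh1 (adjusted p = 0.0763) and 0.37 ± 0.16 with sh2 (adjusted p = 0.0459). Along the chromosome, the 3 neighbours EPGN, EREG and AREG fell, and no coding gene next to them did.

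**Figure D2:**
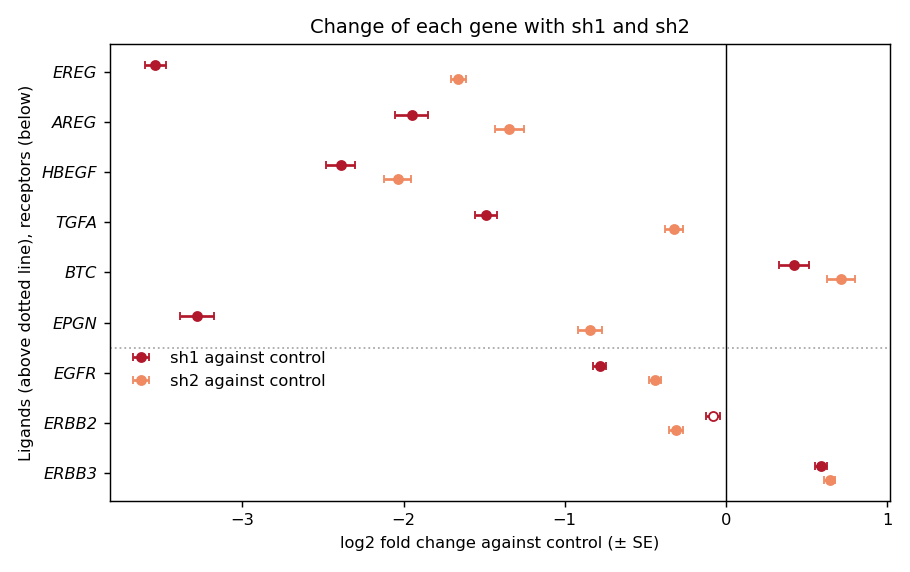
Log2 fold change against control (horizontal axis, error bars SE) of each ligand and receptor gene with sh1 and sh2. Filled points passed an adjusted p of 0.05 and the open point did not: ligand changes reach -3.54, while the receptors lie between -0.78 and 0.65.

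The second question was what happened to the receptor genes. None of the 3 changed 2-fold. EGFR fell with both hairpins, ERBB3 rose with both, and ERBB2 fell with sh2. EGFR, the receptor of all 6 ligands, had 42.6, 39.4 and 42.0 TPM with sh1, 50.3, 49.1 and 55.9 TPM with sh2, and 70.1, 76.3 and 73.5 TPM in control. All hairpin libraries lay below all control libraries, with sh1 the lowest. EGFR changed by -0.78 ± 0.039 with sh1 (adjusted p = 4.17e-17) and -0.44 ± 0.038 with sh2 (adjusted p = 1.27e-11), and was lower with sh1 than with sh2 by -0.34 ± 0.041 (adjusted p = 1.26e-08).

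ERBB3, the receptor that couples strongly to PI3 kinase, had 79.5, 73.0 and 75.7 TPM with sh1, 78.1, 73.5 and 79.6 TPM with sh2, and 52.9, 50.8 and 53.0 TPM in control. The hairpin libraries overlapped each other and lay above all control libraries. ERBB3 rose by 0.59 ± 0.034 with sh1 (adjusted p = 1.43e-15) and by 0.65 ± 0.034 with sh2 (adjusted p = 1.46e-16). The difference between the hairpins was -0.055 ± 0.032 and did not pass (adjusted p = 0.133), which does not show that they act alike. ERBB2, the partner without a ligand, had 49.1, 50.3 and 53.1 TPM with sh1, 41.1, 40.9 and 46.2 TPM with sh2, and 54.5, 57.2 and 54.8 TPM in control. It fell with sh2 by 0.31 on the log2 scale (-0.31 ± 0.044, adjusted p = 3.49e-07). With sh1 its change of -0.081 ± 0.043 did not pass (adjusted p = 0.0978). That value passed without sh1 library 3 (-0.11, adjusted p = 0.0424), without sh2 library 3 (-0.083, adjusted p = 0.043) and with only the groups compared in the fit (-0.089, adjusted p = 0.0305). ERBB2 was higher with sh1 than with sh2 by 0.23 ± 0.045 (adjusted p = 4.61e-05).

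The third question was how ligands and receptors compare. Summed over the 6 genes, ligand levels were 43.7 ± 2.46 TPM with sh1, 83.6 ± 0.949 TPM with sh2 and 181 ± 6.45 TPM in control (SD, n = 3 libraries). The 3 receptors summed to 168 ± 4.79 TPM with sh1, 172 ± 9.23 TPM with sh2 and 181 ± 3.43 TPM in control. The ligand sum fell while the receptor sum changed by much less. In the receptor sum the sh2 and control libraries overlapped, whereas all sh1 libraries (162.7 to 171.2 TPM) lay below all control libraries (177.5 to 184.3 TPM). Ligand over receptor TPM was therefore 0.259 ± 0.00752 with sh1, 0.488 ± 0.0204 with sh2 and 1.00 ± 0.0362 in control. These ratios are descriptions of RNA levels, with no test. The receptor sum joins EGFR, which fell, with ERBB3, which rose, and with ERBB2, which has no known ligand. Set against EGFR alone, the receptor of all 6 ligands, the ligand sum fell by less than these ratios show.

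**Figure D3:**
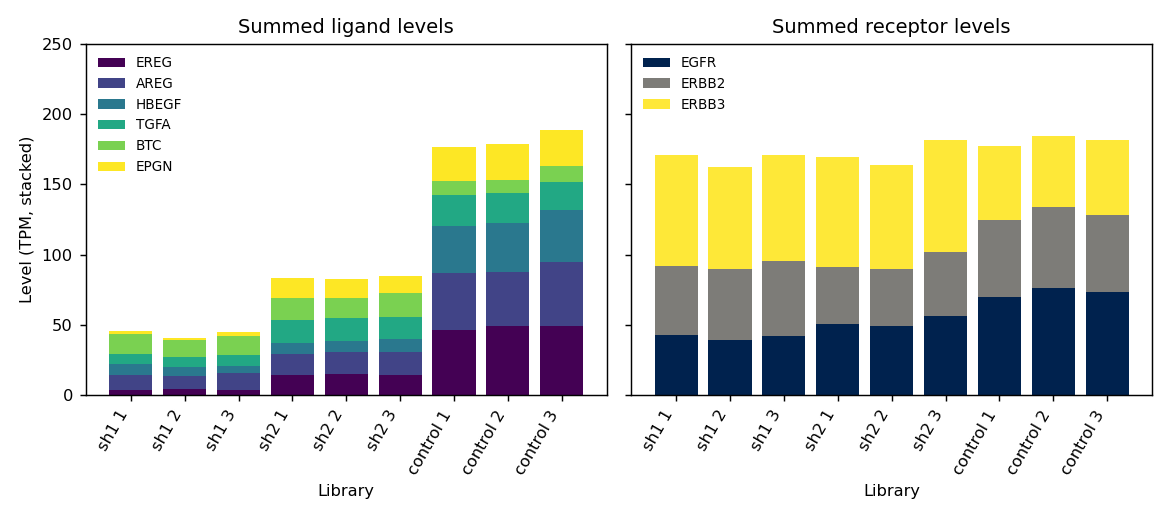
Stacked TPM levels of the 6 ligand genes (left) and the 3 receptor genes (right) in each of the 9 libraries, on one linear axis. The ligand columns reach 40.9 to 45.5 TPM with sh1, 82.8 to 84.6 TPM with sh2 and 177 to 189 TPM in control, and the receptor columns 163 to 184 TPM in all.

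The make-up of each sum differed as well. BTC took 29.8% ± 0.862 of the ligand TPM with sh1, 18.8% ± 1.18 with sh2 and 5.57% ± 0.486 in control. EREG took 9.27% ± 1.47 with sh1, 17.5% ± 0.797 with sh2 and 26.7% ± 0.79 in control. The gene of highest level among the ligands was thus BTC with sh1 and EREG in control. With sh2, TGFA, BTC, AREG, EREG and EPGN, in falling order of mean TPM, each overlapped the next in range. With sh1, TGFA and HBEGF overlapped each other, and in control no ligand overlapped its neighbour in the order EREG, AREG, HBEGF, EPGN, TGFA, BTC. The receptors ran in falling order ERBB3, ERBB2, EGFR with sh1, ERBB3, EGFR, ERBB2 with sh2 and EGFR, ERBB2, ERBB3 in control, in each case without overlap between neighbours. ERBB3 stood at 1.84 ± 0.0348 times the TPM of EGFR with sh1, 1.49 ± 0.0649 times with sh2 and 0.714 ± 0.0451 times in control.

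Between the hairpins, all 6 ligand genes were lower with sh1 than with sh2, 3 of them at 2-fold or more (EREG, EPGN and TGFA). Of the receptors, EGFR was lower, ERBB2 higher and ERBB3 not called. Over all genes tested, 69.8% differed between the hairpins (34.2% higher and 35.6% lower with sh1, 4.37% higher and 3.9% lower by 2-fold or more). The median difference of the ligands was -0.89, that of the receptors -0.055 and that of all genes 0.0032.

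Of 6 further genes of the family, 5 could be tested. NRG1, a neuregulin that binds ERBB3 and ERBB4, behaved like the falling EGFR ligands, with 8.69, 7.19 and 6.74 TPM with sh1, 15.4, 15.7 and 17.2 TPM with sh2, and 37.6, 37.6 and 34.4 TPM in control. It changed by -2.37 ± 0.063 and -1.61 ± 0.056 (adjusted p = 5.46e-24 and 5.06e-21). The weighted transcript length of NRG1 also differed between the groups. TPM allows for that length, whereas the log2 changes, fitted on counts, do not. The size of the NRG1 fall therefore depends on the measure. EGF itself, a low gene here, rose with both hairpins, by 1.78 ± 0.12 with sh1 and 0.65 ± 0.14 with sh2 (6.25 ± 0.179, 2.81 ± 0.28 and 1.90 ± 0.376 TPM with sh1, sh2 and in control). EGF was higher with sh1 than with sh2 by 1.13 ± 0.11 (adjusted p = 9.65e-11). NRG4, an ERBB4 ligand, rose by 0.67 ± 0.14 and 1.19 ± 0.13. ERBB4 had 43 counts over the sh1 libraries, 20 over the sh2 libraries and 19 over the control libraries, and its rise of 1.21 ± 0.38 with sh1 (adjusted p = 0.00661) was not called by DESeq2 (adjusted p = 0.0614). Its change with sh2 was 0.0082 ± 0.46 and did not pass (adjusted p = 0.989). NRG2 did not pass with either hairpin (0.61 ± 0.36 and 0.56 ± 0.36), and NRG3 was at 0 counts in all 9 libraries, which allows up to 3 counts in each, for counting error only.

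Genes of ligand shedding, the step that frees the precursors, moved in both directions. Of 11, 4 rose and 4 fell with sh1 (34.7% and 34.6% over all genes), and 2 rose and 6 fell with sh2 (34.2% and 34.3% over all genes). The list's medians were -0.026 with sh1 and -0.25 with sh2, and its changes ran from -0.44 to 1.23 with sh1 and from -0.6 to 1.07 with sh2. ADAM17, the main sheddase of several EGFR ligands, changed by -0.018 ± 0.03 with sh1 (adjusted p = 0.621) and fell with sh2 (-0.42 ± 0.031, adjusted p = 5.06e-13). ADAM10, the sheddase of BTC and EGF, changed by -0.026 ± 0.031 and -0.0076 ± 0.031 and passed with neither hairpin. ADAM12, a metalloprotease reported to cut HBEGF, rose by 1.23 ± 0.11 and 1.07 ± 0.12. ADAM9 rose with sh1 (0.59 ± 0.027) and fell with sh2 (-0.27 ± 0.028), and so did FRMD8, which stabilises the iRhom-ADAM17 complex (0.41 ± 0.048 and -0.25 ± 0.052).

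Of 21 adaptors and kinases between the receptors and ERK, 7 rose and 10 fell with sh1 (34.7% and 34.6% over all genes), and 8 rose and 11 fell with sh2 (34.2% and 34.3% over all genes). The medians were -0.077 and -0.11, where those of all genes were 0.014 and 0.0046. The 2 of greatest difference between the hairpins were PTPN11 and NRAS. PTPN11, the phosphatase SHP2 that relays receptor signals to RAS, changed by -1.76 ± 0.04 with sh1 and 0.14 ± 0.034 with sh2, a difference of -1.9 ± 0.04 (adjusted p = 4.44e-26). NRAS, a RAS GTPase, changed by -1.47 ± 0.051 with sh1 and -0.19 ± 0.042 with sh2, a difference of -1.28 ± 0.052 (adjusted p = 2.25e-19). These were the 2 of the 21 that fell 2-fold or more with sh1 (5.21% over all genes), and with sh2 there was none (4.61% over all genes).

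Genes of receptor inhibition and turnover fell for 12 of 18 with sh1 and as many with sh2, where 34.6% and 34.3% of all genes fell. Of the others, 5 were called higher with sh1 and 3 with sh2 (34.7% and 34.2% over all genes). The medians were -0.17 and -0.25, against 0.014 and 0.0046 over all genes. ERRFI1, an inhibitor that binds the EGFR kinase and is induced by EGFR signals, had 31.9, 31.1 and 28.4 TPM with sh1, 45.6, 42.9 and 44.6 TPM with sh2, and 130, 130 and 136 TPM in control. Its changes were -2.06 ± 0.041 and -1.5 ± 0.038. LRIG1, a membrane inhibitor of ERBB receptors, fell with sh2 by 1.26 on the log2 scale (-1.26 ± 0.08) but had 0.17 ± 0.067 with sh1 (adjusted p = 0.0262), a small rise lost without sh1 library 1 or 3 or control library 2 (0.13 to 0.15), with DESeq2 (adjusted p = 0.167) and in all 3 limma fits (adjusted p of 0.0527 to 0.0795). CBLB, a ubiquitin ligase of activated receptors, fell with sh2 by -1.06 ± 0.068. With sh1 it changed by -0.18 ± 0.061 (adjusted p = 0.0117), a call lost without sh1 library 1 or 2 or control library 3 (-0.13 to -0.15), with DESeq2 (adjusted p = 0.056) and in all 3 limma fits (adjusted p of 0.0515 to 0.0882).

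Transcripts listed as responsive to ERK fell for 16 of 18 with sh1 and 15 of 18 with sh2, 11 and 6 of them 2-fold or more. ERK activity itself was not measured, and its part in these falls was not tested. Over all genes 34.6% fell with sh1 and 34.3% with sh2, 5.21% and 4.61% by 2-fold or more. The medians were -1.33 and -0.75, against 0.014 and 0.0046 over all genes. EPHA4 rose with both hairpins and DUSP4 rose with sh2 (0.19 ± 0.054) while it fell with sh1 (-0.74 ± 0.062). The rise of EPHA4 with sh2 (0.2, adjusted p = 0.0175) was lost without sh2 library 1 (0.16, adjusted p = 0.0853), without control library 1 (0.12, adjusted p = 0.177), with DESeq2 (adjusted p = 0.0958) and in all 3 limma fits (adjusted p of 0.0572 to 0.0913). Among the falls of greatest size with both hairpins, DUSP6, a phosphatase that switches ERK off, had 5.46 ± 0.74 TPM with sh1, 10.6 ± 0.673 TPM with sh2 and 31.6 ± 0.498 TPM in control. SPRY4, an inhibitor of receptor signalling, had 1.01 ± 0.221, 1.47 ± 0.437 and 4.91 ± 0.314 TPM in the same order. EGR1 stood at 29.3 ± 1.74, 33.8 ± 3.93 and 296 ± 14.6 TPM, PHLDA1 at 14.9 ± 0.345, 28.8 ± 1.15 and 135 ± 5.45 TPM, and FOS changed by -2.69 ± 0.072 and -2.4 ± 0.068. The AP-1 factor FOSL1 and the ETS factor ETV5 differed most between the hairpins. FOSL1 stood at 37.7 ± 2.11 TPM with sh1, 189 ± 25.8 TPM with sh2 and 246 ± 16.8 TPM in control, and sh1 differed from sh2 by -2.34 ± 0.071 (adjusted p = 2.87e-22). ETV5 differed by -1.56 ± 0.15 (adjusted p = 1.05e-10). FOSL1 thus had the order of levels seen for EREG and EPGN, with sh1 far below sh2 and sh2 below control. That sh1 was lowest and control highest was not particular to FOSL1, since PHLDA1 and DUSP6 had it too. By mean TPM, IER3, DUSP4, SPRED2, CCND1, MYC and EPHA4 of this list did not have that order. With sh2, FOSL1 fell by less than EREG (-0.32 against -1.66).

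**Figure D4:**
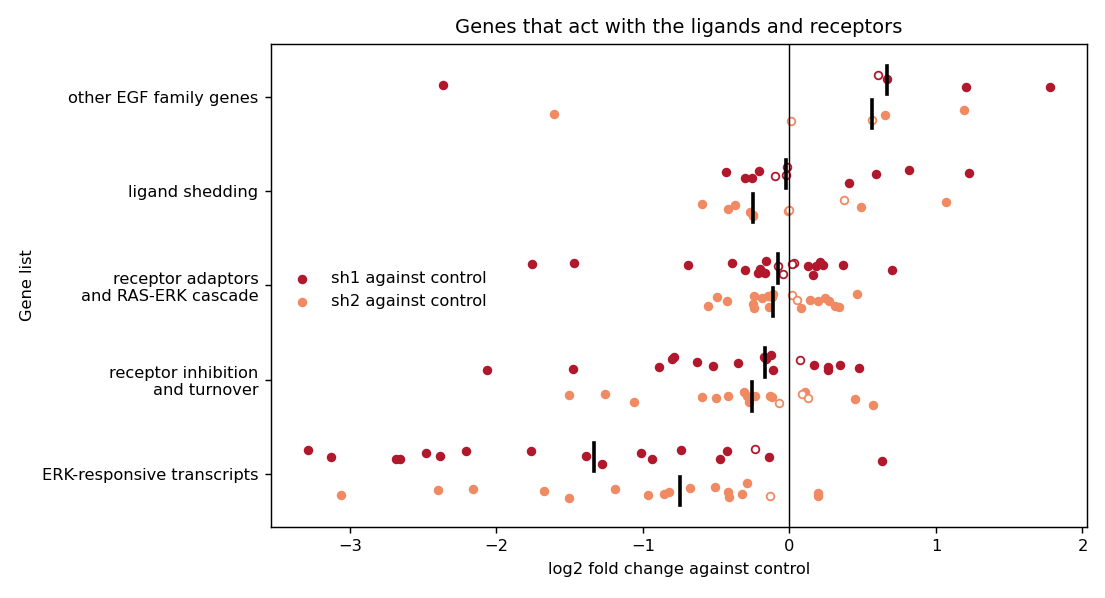
Log2 fold change against control (horizontal axis) of each tested gene in 5 lists of genes that act with the ligands and receptors, with sh1 above sh2 in each list. Filled points passed an adjusted p of 0.05, open points did not, and black bars are list medians, lowest for the ERK-responsive transcripts at -1.33 with sh1 and -0.75 with sh2.

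The genes most like a member in their pair of log2 changes were looked up for the ligand and the receptor of highest mean TPM over the 9 libraries, EREG (22.4 TPM, with AREG at 22.3) and ERBB3 (68.5 TPM). IL1B, an inflammatory cytokine gene, lay nearest to EREG, at a Euclidean distance of 0.204 in the plane of the changes with sh1 and sh2 (-3.35 and -1.59). GPR15LG followed at 0.224 and NWD2 at 0.347, and 5 tested genes in all lay within 0.5 of EREG. Nearest to ERBB3 were LAMTOR5 at 0.014, ZNF678 at 0.015 and HOXB7 at 0.021, among 2049 genes within 0.5. Few genes thus lay near EREG, whose changes were large, and many near ERBB3, whose changes were small. Large changes are rarer over all genes, so these counts do not measure how particular either pair of changes is.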

How the data were processed

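RNA of 3 KYSE510 samples (sh1, sh2 and control, with 3 tables each) was sequenced on a BGISEQ-500, per the labels. The submitters' processing notes list RSEM 1.2.12, HISAT2 2.0.4 and Bowtie2 2.2.5, besides DESeq2 1.4.5 and the build hg19, without their roles. Per the file headers, the authors deposited FPKM, TPM and expected counts for each Entrez gene. The expected counts deposited by the authors are estimates that need not be whole. They were rounded to whole numbers here. The TPM values deposited by the authors were used as levels, since they are per length. The FPKM values, also deposited by the authors, entered alternatives alone, as log2(FPKM + 1) or log2(FPKM + 0.1), a scale on which fold changes understate those of low genes. A table of the same FPKM values for the whole series was not used. Symbols came from RefSeq (GRCh38.p14) for 19223 of 19266 genes. The labels do not give whether strand was used in counting, so reads of a gene and of an antisense partner cannot be told apart.

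In R 4.3.3, edgeR 4.0.16 kept 13580 genes (filterByExpr), scaled by TMM and fitted all 9 libraries in 1 quasi-likelihood model with group as its term. Calls needed a p below 0.05 after Benjamini-Hochberg adjustment over all genes tested. The SE is the absolute log2 fold change over the square root of F. Tables of a sample differed by a chi-square per gene of 1.41 to 2.44 (genes averaging 20 counts or more), which is more than sampling noise and no proof of separate cultures. The fit was checked on simulated counts. Alternatives were other scalings, DESeq2 1.42.0, limma 3.58.1, other filters, libraries left out, table number as block, and tables summed. The members, lists and naming rule were chosen with earlier results of these data known. Named beside the members were list genes called the same way at 2-fold or more with both hairpins (at most 5 per list), the 2 per list of greatest difference between the hairpins, and the 3 genes nearest to a member. ADAM17, ADAM10, NRG2, NRG3, NRG4, EPHA4, DUSP4, IER3, SPRED2, CCND1, MYC and the genes flanking the cluster were named outside that rule, after their values were seen. So were the markers SOX2, TP63, KRT17, KRT5, CD68, LYZ, PTPRC, CD3E, COL1A1, CDH5, VWF and PECAM1. Protein sequences were not used here, and 1 marker gene is not reported here.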

Additional observations from a re-analysis of the deposited data

Results flagged for a closer look

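For 3 members the effects of the hairpins differed from each other by 2-fold or more, by the test of sh1 against sh2 (quasi-likelihood test of edgeR, p adjusted by Benjamini-Hochberg over all genes). EREG had a difference of -1.88 (adjusted p = 5.2e-19), with all 3 sh1 libraries below all 3 sh2 libraries. TGFA had a difference of -1.17 (adjusted p = 3.9e-15), with the same separation. EPGN had a difference of -2.44 (adjusted p = 2.56e-17), again without overlap. Each hairpin is 1 sample, so that a difference between hairpins and one between cultures cannot be told apart.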

How the results depend on the processing

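All 27 log2 changes of the 9 members (3 contrasts) kept their direction under 19 alternatives each. Their calls were kept under the 18 of these that hold a test, other than those of ERBB2 with sh1 and of HBEGF between the hairpins, given above. Counts of genes called moved by less than 1.5 times, with 8410, 8191 and 8383 by DESeq2 for sh1, sh2 and sh1 against sh2. The number of receptors called lower with sh1 was 1 in the report, 1 to 2 with a library left out, and 2 with only the groups compared in the fit. The log2 ratio of summed ligand levels for sh2 against control was -1.12 in TPM and -1.06 in FPKM. That of the receptors for sh1 against sh2 was -0.028, within the spread between libraries, and ran from -0.062 to 0.015 with 1 library left out, reaching 0.015 without sh2 library 3. The change of ERBB4 with sh2 was 0.0082 in the report and -0.0030 without the low-count filter. It ran from -0.25 to 0.34 with 1 library left out, with -0.14, -0.04, -0.25 and -0.028 without sh2 library 1, sh2 library 3, control library 1 and control library 2. Depth limits it, with 20 counts over the sh2 and 19 over the control libraries. The cause of these shifts was not tested. Same-numbered tables did not deviate together (correlations of -0.077 to 0.043 over 9 pairs, and 2 of 9 libraries correlated best with their own number). Tables of unlike number gave -0.085 to 0.067 over 18 pairs. No pairing by number was thus seen. That does not show that there was none, since scatter that is only technical could not reveal it. With the table number as replicate block, 9431, 9295 and 9501 genes were called, against 9409, 9298 and 9477.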

Other observations

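The tables give for each gene a length weighted over its transcripts, which enters the TPM values above and was not itself compared there. For NRG1, listed with 23 transcripts, it was 4048 to 4406 bases with sh1, 3095 to 3526 bases with sh2 and 4526 to 4897 bases in control, with no overlap between the groups. Of the members with several transcripts, EPGN had 2566 to 2695 bases with sh1, 2563 to 2629 bases with sh2 and 2565 to 2613 bases in control. EGFR had 5929 to 6072 bases with sh1, 5873 to 6044 bases with sh2 and 5972 to 6043 bases in control. For EPGN and EGFR the groups overlapped. NRG1 stood at 16.1 ± 0.936 TPM with sh2 and 36.6 ± 1.86 TPM in control (SD, n = 3 libraries), on 1079 counts over the sh2 libraries and 3139 over the control libraries. A shorter weighted length raises the TPM that a given count yields.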
